A study of Drosophila melanogaster with 12 samples.

Results

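The subject is the transcripts of proteasome subunits in Drosophila melanogaster larvae with a gain or a loss of the transcription factor MiT. Members are the probe sets whose symbol in the authors' deposited table of comparisons begins with Pros followed by alpha, beta or a digit, or with Rpn or Rpt followed by a digit, with 1 probe set kept per gene. The rule gave 30 of the 12501 genes that could be named, on 14169 of 18769 probe sets that are not array controls: 10 subunits of the core particle, 14 of the regulatory particle and 6 paralogs of the testis type. For 11 of the 30 the file's symbol is an older name, and the RefSeq symbol is used here; the probe set that the file calls Prosbeta4, for example, belongs to Prosbeta7, and Pros26.4 is Rpt2. A further 8 standard subunits are measured under unrelated names in the file (Prosalpha5, Prosbeta1, Prosbeta4, the ATPase Rpt5, and the non-ATPase subunits Rpn3, Rpn8, Rpn13 and Sem1) and are reported beside the members, so that 32 of 33 standard subunits are covered.

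The proteasome is the protease that degrades proteins marked with ubiquitin. Its barrel-shaped core particle is built of rings of alpha subunits, which gate the entrance, and rings of beta subunits, of which Prosbeta1, Prosbeta2 and Prosbeta5 carry the proteolytic sites. The regulatory particle that caps the barrel has a base, with the Rpt ATPases that unfold substrates and pull them in and the scaffolds Rpn1 and Rpn2, and a lid, in which Rpn11 removes the ubiquitin chain. Drosophila also carries duplicated subunit genes, several of which are known for their expression in the male germ line.

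Transcripts were measured on 12 Affymetrix Drosophila_2 arrays of total RNA from L3 larvae, in 4 groups of 3. Wing discs from nub-Gal4 UAS-MiT larvae, in which a driver of the wing-forming region of the disc drives the transgene, were set against wing discs with nub-Gal4 alone, whose titles call them wt. Hindguts were collected with Malpighian tubules, which form the urine of the fly, and came from MiT mutants (MiTTZ2/Df(4)TZ, an allele over a deficiency, with EMSTZ2 in the titles) and from wild type; these are called hindgut-tubule samples here. The series asked which loci go up with gain of MiT in the wing and down with its loss in the hindgut and tubules; the labels name no background strain for any group and do not say that arrays of a group came from separate dissections, so a p-value speaks of the spread among these arrays alone, which may be technical.

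Values are the deposited log2 levels, and a change is a difference of mean log2 levels. Mitf, the gene of MiT, had log2 levels of 4.54, 4.19 and 4.51 in the mutant samples, against 7.05, 6.55 and 6.16 in wild type (change -2.17, limma adjusted p = 5.87e-05), while its probe set had 8.02, 8.11 and 8.21 in the discs with the transgene, against 7.93, 7.91 and 8.15 in control discs (adjusted p = 0.824). The array thus showed no rise of Mitf in the discs labelled as overexpressing MiT, called labelled MiT discs below, and whether the probe set covers the transgene was not tested. In control discs, 8 of 8 wing disc markers were higher than in the wild-type hindgut-tubule samples, and 5 of 5 tubule and 5 of 5 hindgut markers were lower.

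The second mutant hindgut-tubule array, called mutant array 2, stood apart. It carried 685 probe sets with a log2 level of at least 4 that were under 4 on all other arrays, against 5 to 52 such probe sets on each of the other 11. Of 19 testis markers 12 reached 4 on it, against 2 to 8 on the others (8 on wild-type array 3), and their mean level was 5.92, against 2.78 to 3.92 on the others. The 12 include mia, twe and bol, which reached 4 on all 6 hindgut-tubule arrays and were lower on mutant array 2 than on every wild-type array. Results in the hindgut-tubule samples are therefore given with and without it.

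All 24 standard subunits were strongly expressed, with log2 levels of at least 10 on every array. They also varied in parallel: over the 12 arrays, which share tissue and processing, the Pearson correlation between subunits had a median of 0.96 over the 45 pairs within the core particle (lowest 0.88) and of 0.90 over the 91 pairs within the regulatory particle (lowest 0.61). For the 140 pairs of a core and a regulatory subunit the median was 0.87, with a lowest value of 0.51. These are descriptions of 12 arrays from 2 tissues, in which a shared tissue difference alone gives a positive value.

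**Figure D1:**
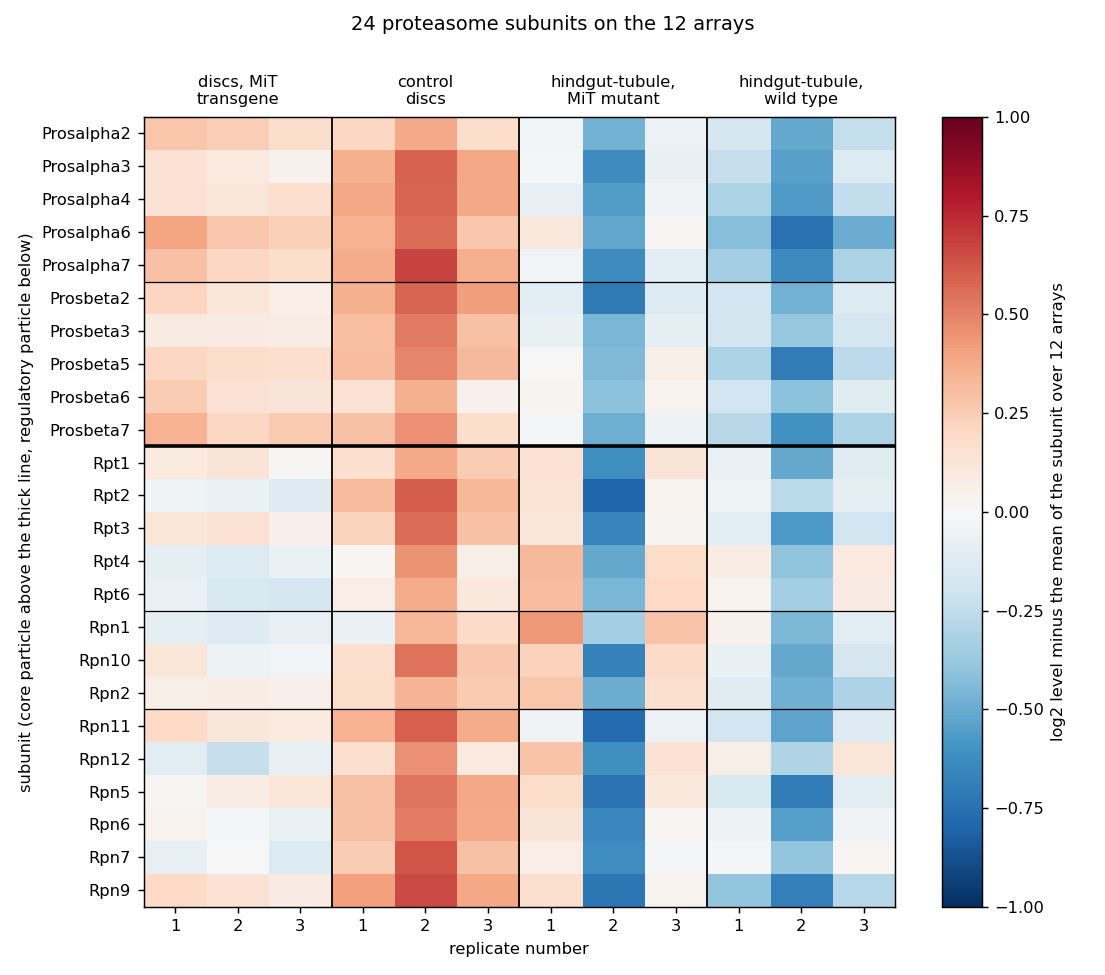
Log2 level of each of the 24 standard subunits (rows) on each of the 12 arrays (columns, replicate numbers 1 to 3 in each group) minus that subunit's mean over the 12 arrays; red is above and blue below that mean. Control disc 2 is the reddest column, with a mean of 0.51 over the 24, and mutant array 2 and wild-type array 2 are the bluest, with means of -0.58 and -0.51.

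The first comparison asked whether gain of MiT in the wing disc altered proteasome transcripts. The fitted change of every standard subunit was negative, with a median of -0.30 (1.23-fold) against -0.03 over all probe sets tested, but 0 of 24 passed the test in either direction. The limma fit to all 12 arrays called 7.13% of 8678 tested probe sets higher and 5.27% lower, and 55.0% had a negative change. At an unadjusted p under 0.05, 3 of the 24 were lower (Prosbeta3, Rpt2 and Rpn7) and 0 higher, and the lowest adjusted p was 0.160, for Rpn7. The authors' deposited table, from an analysis of variance, also has 0 of the 24 under an adjusted p of 0.05 (lowest 0.308).

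The changes were small, and for most subunits the disc groups did not overlap. In 20 of the 24, every labelled MiT disc lay under every control disc, which was so for 26.9% of the probe sets tested; the opposite order, seen in 20.9% of probe sets, occurred in 0 of the 24. The 3 labelled MiT discs agreed closely, with a median SD of 0.06 over the 24 subunits, against 0.14 in control discs. In the hindgut-tubule samples that median was 0.41 in the mutant and 0.21 in wild type, and the fit to all 12 arrays shares 1 variance per probe set among the 4 groups.

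Rpt2, an ATPase of the base that takes part in opening the gate of the core particle, had the most negative change. Its log2 levels were 11.68, 11.65 and 11.58 in the labelled MiT discs, against 12.03, 12.32 and 12.05 in control discs. The groups did not overlap, and the change was -0.49 with an SE of 0.21 (1.41-fold; limma adjusted p = 0.181 over 12 arrays). In the limma fit to the 6 disc arrays the SE was 0.10 and the adjusted p 0.0125.

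The lid followed closely. Rpn7, a structural subunit of the lid, had 11.45, 11.52 and 11.40 in the labelled MiT discs, against 11.78, 12.16 and 11.82 in control discs (change -0.47, SE 0.19). Rpn6, which clamps the lid to the core particle, had 12.65, 12.59 and 12.55 in the labelled MiT discs, against 12.91, 13.12 and 12.99 in control discs (change -0.41, SE 0.21). Neither pair of groups overlapped. The deubiquitinase Rpn11 had 12.63, 12.54 and 12.53 in the labelled MiT discs, against 12.78, 13.03 and 12.80 in control discs, again without overlap (change -0.30, SE 0.19). Rpn12, Rpn9 and Rpn5, further lid subunits, had changes of -0.38, -0.34 and -0.33, and the median of the 6 lid subunits was -0.36.

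The base varied more among its members. The 5 ATPases ranged from -0.49 for Rpt2 to -0.19 for Rpt1, with Rpt6 at -0.31, Rpt4 at -0.27 and Rpt3 at -0.25, and a median of -0.27. Of the non-ATPase subunits the ubiquitin receptor Rpn10 had a change of -0.31, and the scaffolds Rpn1 and Rpn2 had -0.25 and -0.20. All 14 regulatory subunits were without overlap between the disc groups.

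The core particle showed the widest range. Prosalpha3, an alpha subunit of the gated ring, had 12.55, 12.50 and 12.45 in the labelled MiT discs, against 12.76, 13.00 and 12.79 in control discs (change -0.35, SE 0.17). Prosbeta2, a proteolytic subunit, had a change of -0.32, Prosalpha4 one of -0.31, Prosbeta3 one of -0.29 and Prosalpha7 one of -0.24, and Prosbeta5, another proteolytic subunit, one of -0.19. At the other end, Prosbeta6 had 12.81, 12.70 and 12.69 in the labelled MiT discs, against 12.70, 12.91 and 12.60 in control discs. These groups overlapped, as they did for Prosalpha2, Prosbeta7 and Prosalpha6, and the 4 changes were -0.0038, -0.02, -0.04 and -0.09. In all, 6 of 10 core subunits were without overlap, with a median change of -0.22, against 14 of 14 and -0.31 in the regulatory particle; the difference between the particles was not tested.

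In the limma fit to the 6 disc arrays alone, listed as an alternative, the same changes had a median SE of 0.09 in place of 0.19, and 11 of the 24 standard subunits were called lower and 0 higher. That fit called 17.5% of 7888 tested probe sets lower and 15.0% higher. The 11 were all 6 lid subunits, Rpt2, Prosalpha3, Prosalpha4, Prosbeta2 and Prosbeta3, with adjusted p from 0.0119 (Rpn6) to 0.0464 (Rpn11). The count depended on single discs: it was 2 without any one of the labelled MiT discs, 5 without control disc 2 and 8 without control disc 1 or 3. The share of tested probe sets called lower was 10.7%, 9.18% and 11.6% without labelled MiT disc 1, 2 or 3, so that 2 of 24 was at or under the background there, and 14.0%, 12.7% and 14.9% without control disc 1, 2 or 3. Rpt2 and Rpn6 were called in 6 of these 6 fits and Rpn7, Prosalpha3 and Prosalpha4 in 3.

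**Figure D2:**
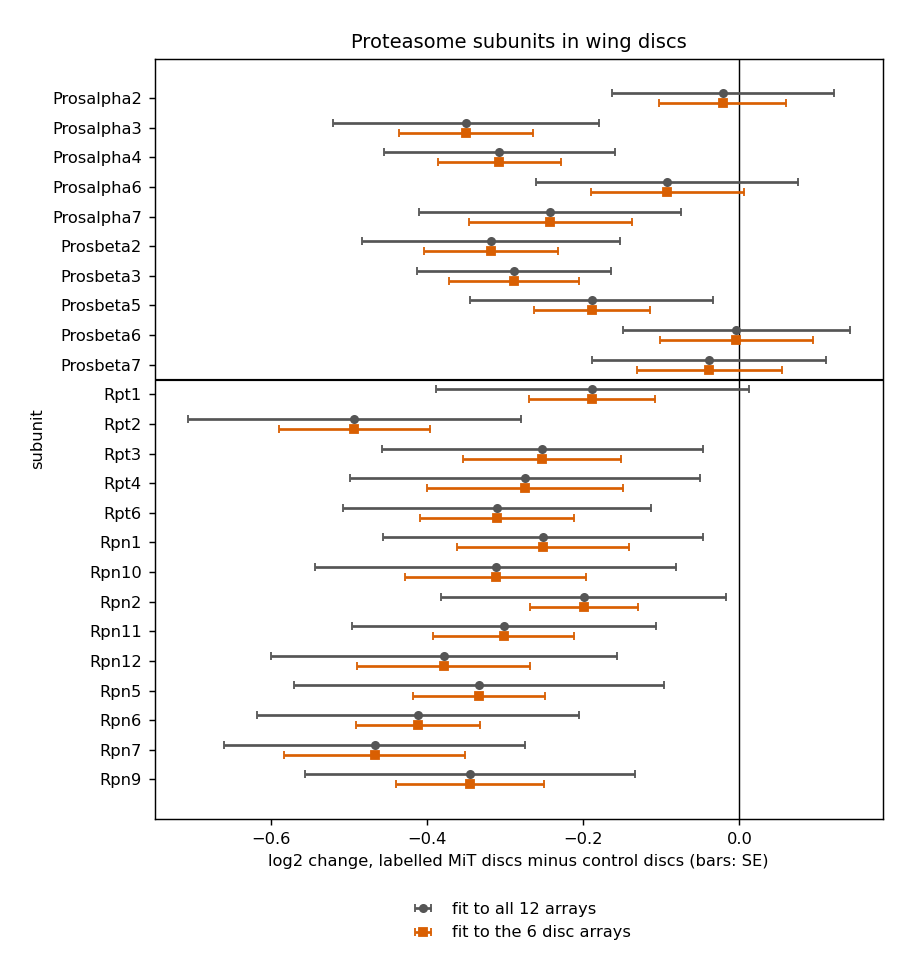
Log2 change of each of the 24 standard subunits, labelled MiT discs minus control discs, on the horizontal axis, with bars of 1 SE; circles are the limma fit to all 12 arrays and squares the fit to the 6 disc arrays. Every point lies left of 0, from -0.0038 for Prosbeta6 to -0.49 for Rpt2, and the bars of the 6-array fit are shorter.

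The 8 subunits measured under unrelated names had the same sign, from -0.08 (Prosbeta1) to -0.47 (Rpn3), with 0 called in the 12-array fit. The 6-array fit called 4 of them lower, where 17.5% of tested probe sets were called lower. The 4 were Rpn3, Rpt5, Rpn13 and Sem1, all of the regulatory particle, and Rpn8, also of that particle, was not called. Control disc 2 read highest of the 3 control discs for 24 of the 24 standard subunits, which was so for 33.9% of the probe sets tested. Without that disc the median change over the 24 in the 12-array fit was -0.21, and 21 stayed negative. After each array was centred on the median of the tested probe sets 22 were negative, with Prosalpha2 and Prosbeta6 on the other side of 0.

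Markers of other cell types moved with the same disc comparison. Of 9 hemocyte markers 6 were higher in the labelled MiT discs and 0 lower, with array means of 8.96 to 9.44 in labelled MiT discs and 7.24 to 7.88 in control discs. Of 12 muscle markers 3 were higher and 0 lower (12.34 to 12.58 in labelled MiT discs and 11.70 to 12.06 in control discs). The 12-array fit, from which these counts come, called 7.13% of tested probe sets higher and 5.27% lower. The means of 8 fat body markers were 9.50, 6.22 and 3.67 in the labelled MiT discs, against 9.18, 7.90 and 9.64 in control discs, and 2 of 8 wing disc markers were lower in the labelled MiT discs. Their part in the proteasome values was not tested, and in such whole-tissue samples fewer cells of a type and less RNA per cell cannot be told apart.

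The second comparison asked what loss of MiT did in the hindgut and tubules. The standard subunits read slightly above wild type, with a median change of 0.12 over the 24 (against -0.0032 over all probe sets tested), and 0 of 24 passed the limma test in either direction. The fit called 8.09% of the tested probe sets higher and 7.21% lower. Of the 24, 19 had a positive change, as had 49.6% of the probe sets tested, and 0 were without overlap between mutant and wild type (13.2% of tested probe sets were higher and 12.9% lower without overlap). At an unadjusted p under 0.05, 1 was higher and 0 lower, the lowest adjusted p in the authors' deposited table was 0.207, and a 6-array fit to this tissue called 0 as well, with 2.42% of its probe sets higher and 2.14% lower.

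The subunit nearest the threshold was Prosalpha6, of the alpha ring. It had log2 levels of 12.54, 11.92 and 12.45 in the mutant samples, against 12.01, 11.69 and 11.94 in wild type. Mutant array 2 lay within the wild-type range and the other 2 mutant arrays above it. The change was 0.42 (SE 0.17, limma adjusted p = 0.128). With the replicate number as a block, Prosalpha6 was called (limma adjusted p = 0.0486), the only 1 of the 24. That fit called 9.06% of the tested probe sets higher. Its pairing of arrays by number is an assumption, which number 3 did not meet in the check under data processing.

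The other changes were smaller. Prosbeta5, Rpn1, Rpn2 and Rpn9 had changes of 0.30, 0.30, 0.28 and 0.28. Of the 5 subunits with a negative change, Rpt2 had -0.08, Rpn7 -0.06, Prosbeta2 -0.05, Rpn12 -0.02 and Rpn11 -0.0089. The core median was 0.14, that of the regulatory particle 0.10 and that of the lid 0.02. When arrays were centred on the median of all probe sets the lid median turned to -0.06. Centring on the median of tested probe sets gave 0.0093. The median of all probe sets lay near the array's background, at 3.03 on mutant array 2 and 2.64 to 2.71 on the other arrays.

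Mutant array 2 was lowest of the 3 mutant arrays for 24 of 24 standard subunits (59.0% of tested probe sets), and wild-type array 2 was lowest of the 3 wild-type arrays for 24 of 24 (48.2%). Mutant array 2 minus the mean of the other mutant arrays was -0.58 to -0.37 in the core particle, and -0.89 to -0.64 in the regulatory particle. Wild-type array 2 minus the mean of the other wild-type arrays was -0.41 to -0.20 in the core particle and -0.56 to -0.20 in the regulatory particle. Among the 24, the gap in the mutant was wider for every regulatory subunit than for any core subunit; among the subunits under unrelated names, the lid subunit Rpn8 had -0.55, a narrower gap than the -0.58 of the core subunit Prosbeta2. Over all tested probe sets these arrays had median deviations from the 12-array mean of -0.32 (mutant array 2) and -0.25 (wild-type array 2), against -0.11 to -0.18 on the other hindgut-tubule arrays.

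Without mutant array 2 the fitted change of all 24 was positive, with a median of 0.33 (1.25-fold), against 0.07 over all probe sets tested. The limma test then called 5 of 24 higher and 0 lower, with 12.8% of tested probe sets called higher. These were Prosalpha6 (0.61, adjusted p = 0.00977), Rpn2 (0.52, 0.0134), Rpn9 (0.55, 0.0213), the proteolytic Prosbeta5 (0.46, 0.0406) and Rpn1 (0.53, 0.0439), the values after each change being adjusted p. For Rpn9 the remaining mutant arrays had 12.18 and 12.05, against 11.62, 11.33 and 11.73 in wild type. For Rpn2 they had 12.38 and 12.26, against 11.98, 11.62 and 11.80 in wild type. In 22 of the 24 both remaining mutant arrays lay above every wild-type array, as they did for 28.3% of the probe sets tested.

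Among the subunits under unrelated names, Rpt5, Prosbeta4 and Rpn8 passed as higher without mutant array 2 (0.53, 0.34 and 0.41), and 0 of the 8 with it. Leaving out the number 2 arrays of both genotypes gave 4 calls of higher level among the 24 (Prosalpha6, Prosbeta5, Rpn2 and Rpn9), where 15.0% of the probe sets tested were called higher, a share close to that of the subunits. In the fits to the hindgut-tubule arrays alone 0 were called when any 1 array was left out, mutant array 2 included. Those fits called few probe sets at all, 0.36% to 2.37% of those tested as higher and 0.538% to 2.19% as lower. A count of 0 among the 24 is therefore near the background share.

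Some markers of other cell types were also called in the mutant comparison. In the 12-array fit 3 of 12 muscle markers were higher in the mutant and 0 lower, with a median change of 0.54. Their array means were 12.18 to 12.90 in the mutant, against 11.86 to 12.16 in wild type. The 12.90 was that of mutant array 2, and mutant arrays 1 and 3 had 12.30 and 12.18. Of 9 hemocyte markers 1 was higher (array means of 6.76 to 7.18 in the mutant, against 6.08 to 7.09 in wild type). So was 1 of 5 hindgut markers, and 0 of 5 tubule and 0 of 7 tested fat body markers were called. The 12-array fit called 8.09% of tested probe sets higher and 7.21% lower, so that 1 of 9 was near the background share. The 6-array fit called 0 of these markers. It called 2.42% of its probe sets higher and 2.14% lower, so that a count of 0 is near the background share. Their part in the proteasome values was not tested.

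**Figure D3:**
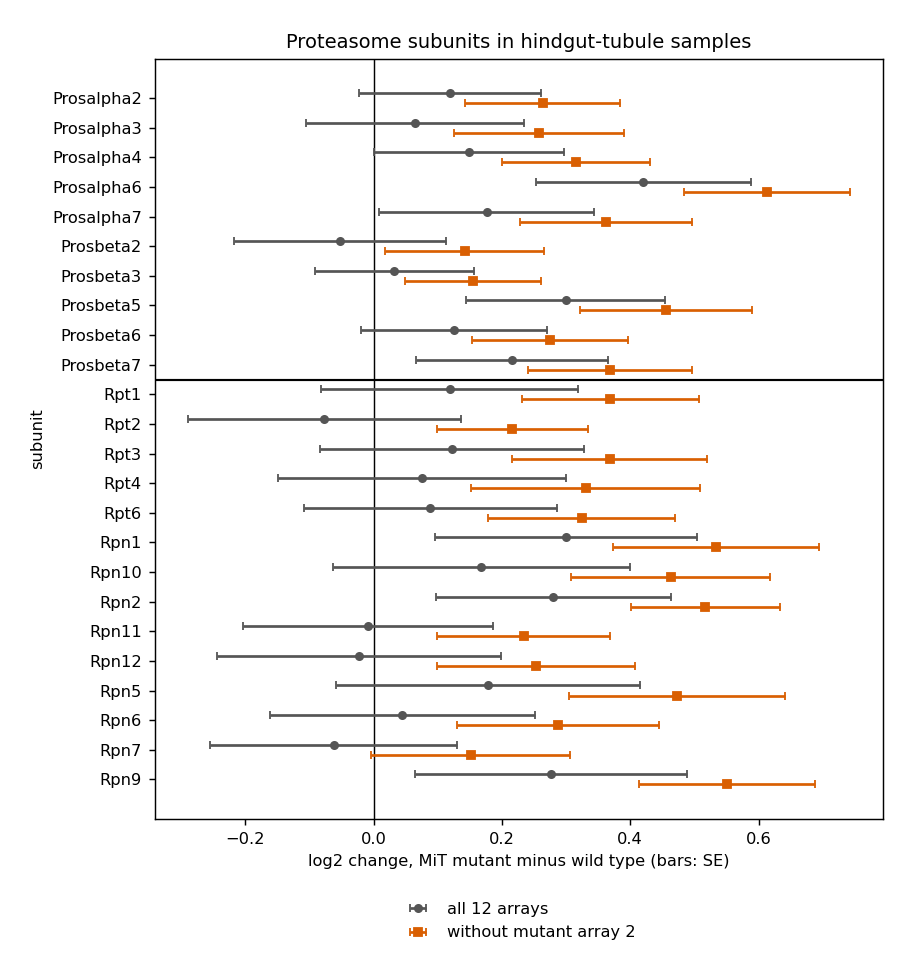
Log2 change of each of the 24 standard subunits, MiT mutant minus wild-type hindgut-tubule samples, on the horizontal axis, with bars of 1 SE; circles use all 12 arrays and squares leave out mutant array 2. The circles lie on both sides of 0, with a median of 0.12, and all squares lie right of 0, with a median of 0.33.

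Levels also differed between the tissues. In control discs 20 of the 24 standard subunits were higher by the limma test than in wild-type hindgut-tubule samples, and 0 lower; 47.6% of the tested probe sets were called higher and 30.0% lower. The nub-Gal4 driver, which the labels give for the discs alone, differs between these groups as well as the tissue. The median change was 0.61 (1.53-fold), against 0.34 over all tested probe sets, and all 24 were positive, as were 59.5% of the tested probe sets. Without overlap were 20 of 24 (50.5% of tested probe sets).

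All 10 core subunits passed in that comparison, with a median of 0.73, and 10 of 14 regulatory subunits, with a median of 0.56. The largest core change was that of Prosalpha6, which had 12.78, 12.99 and 12.71 in control discs, against 12.01, 11.69 and 11.94 in wild-type hindgut-tubule samples (0.95, SE 0.17, adjusted p = 4.00e-04). Prosalpha7 followed with 0.90 and Prosalpha4 with 0.83. In the regulatory particle Rpn9 had 12.43, 12.67 and 12.40 in control discs, against 11.62, 11.33 and 11.73 in wild-type hindgut-tubule samples (0.94, SE 0.21), and Rpn5 and Rpn11 had changes of 0.73 and 0.72. The ATPases Rpt4 and Rpt6, the scaffold Rpn1 and the lid subunit Rpn12 did not pass, with changes of 0.25, 0.25, 0.33 and 0.28.

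The 8 subunits under unrelated names all passed as higher in control discs, with changes of 0.55 to 0.82. Centring each array on the median of the tested probe sets moved the median of all probe sets to 0.13 and that of the 24 to 0.40, with 14 of 24 called (9 core and 5 regulatory), where 42.2% of the probe sets tested were called higher. The count was 11 of 24 without control disc 2, with 9 core and 2 regulatory subunits; 45.0% of the probe sets tested were called higher there, so that the subunits were at the background share.

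The balance of the core and regulatory particles was compared between arrays. Since deviations are taken from each subunit's 12-array mean, the 12 values of this balance sum to 0, so that their signs carry no meaning and their differences alone are read. The mean deviation of the 10 core subunits minus that of the 14 regulatory ones was 0.21, 0.17 and 0.17 in the labelled MiT discs, and 0.10, 0.02 and 0.02 in control discs. It was -0.22, 0.09 and -0.15 in the mutant hindgut-tubule samples, and -0.19, -0.08 and -0.16 in wild type. The 3 labelled MiT discs lay above the 3 control discs, and mutant array 2 lay above the other hindgut-tubule arrays. These differences are given as a description with no test.

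**Figure D4:**
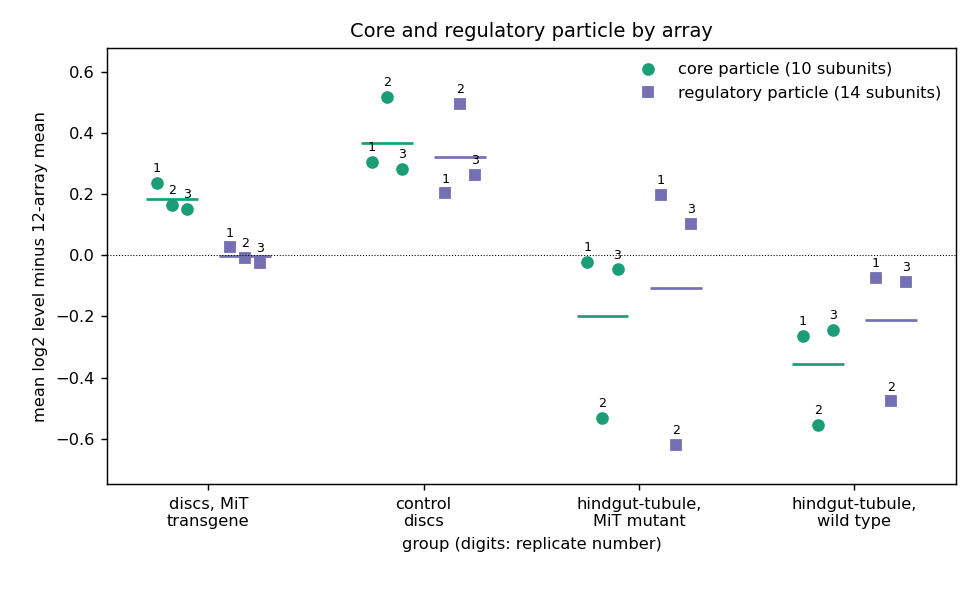
Mean over 10 core subunits (circles) and 14 regulatory subunits (squares) of the log2 level minus each subunit's 12-array mean, for each array, with digits for replicate numbers and lines for group means. The zero is set by the 12-array mean. The gap between core and regulatory means is wider in the labelled MiT discs (0.17 to 0.21) than in control discs (0.02 to 0.10).

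Of the 6 testis-type paralogs chosen by the rule, 5 were near the array's background. Prosalpha3T, Prosalpha4T1, Prosalpha4T2, Prosalpha6T and Prosbeta5R1 had log2 levels under 3 on 11 of 12 arrays, did not pass the filter on dim probe sets and were not tested. On mutant array 2 alone, Prosbeta5R1 had 4.78, against at most 2.21 on the other arrays, and Prosalpha6T, known in flies as an alpha subunit of the male germ line, had 4.53, against at most 2.25 on the others. Prosalpha4T2 had 3.89 and Prosalpha4T1 3.66 on it, against at most 2.21 and 2.22 elsewhere, and Prosalpha3T had 2.48, against at most 2.29.

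Of another 8 paralogs measured under other names, 6 were highest on mutant array 2, while Prosbeta5R2 (2.10, against at most 2.15 elsewhere) and Rpt6R (7.22, against at most 7.41) were not. On mutant array 2 Prosbeta4R1 had 7.07, Prosbeta2R2 6.15, Rpn12R 5.05 and Rpt4R 4.74, where the other arrays had at most 2.30, 2.12, 2.46 and 2.21. Of all 14 paralogs measured, 11 were highest on mutant array 2, and 8 exceeded every other array by over 1 on the log2 scale. Testis markers on that array had log2 levels of 11.23 for ocn, 10.91 for Mst87F, both sperm proteins, and 10.58 for betaTub85D, the testis-specific tubulin. Wild-type array 3 also had testis markers, with 7.59 for ocn and 6.22 for betaTub85D. Mutant array 3 had 4.51 for ocn and 4.34 for Mst87F, against 2.24 and 2.31 on mutant array 1. The paralogs other than Rpt3R and Rpt6R were at their low level on both number 3 arrays. On wild-type array 3 Prosalpha6T had 2.25 and Prosbeta5R1 2.19. Whether testis tissue entered these samples was not tested beyond these markers.

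**Figure D5:**
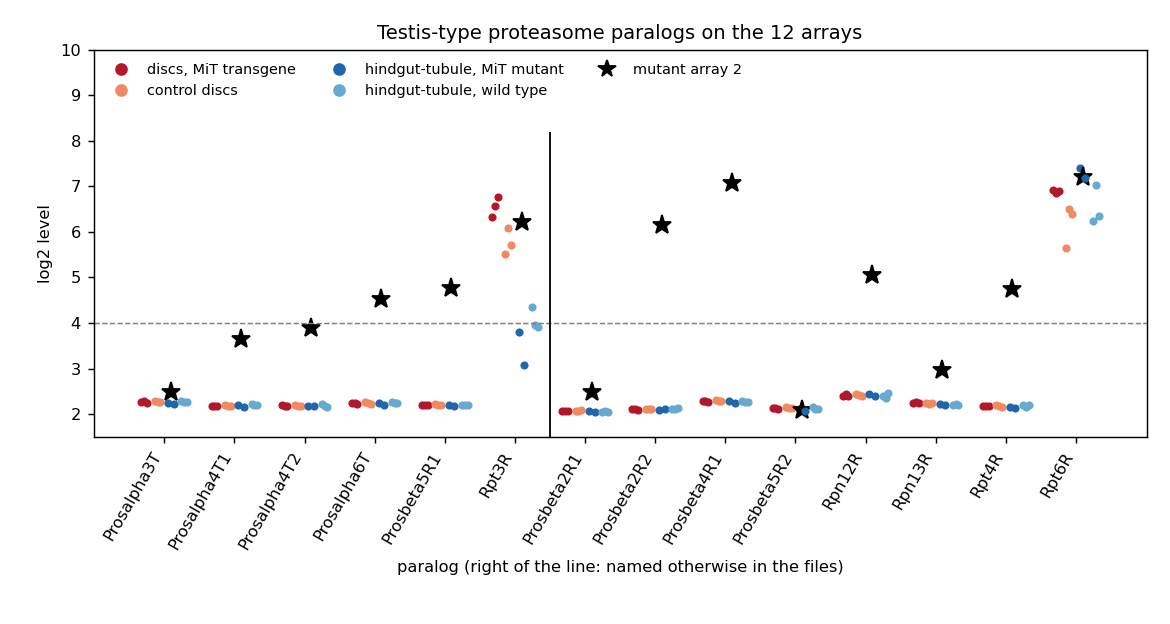
Log2 level of 14 testis-type paralogs on the 12 arrays; each point is an array, coloured by group, the star is mutant array 2, and the dashed line is the filter level of 4. The star lies more than 1 above all other points for 8 paralogs, while Rpt3R and Rpt6R are above 5 on all disc arrays.

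Rpt3R and Rpt6R, paralogs of base ATPases, were expressed in both tissues or in the discs. Rpt3R had 6.33, 6.58 and 6.76 in the labelled MiT discs, against 5.52, 6.09 and 5.72 in control discs, without overlap. The change was 0.78, opposite in sign to the standard subunits, and passed the limma test in the 6-array fit (SE 0.18, adjusted p = 0.0197), where the call ended without labelled MiT disc 2 or 3 or control disc 3 (adjusted p up to 0.0634), but not in the 12-array fit (SE 0.62, adjusted p = 0.517), in which its variance includes mutant array 2; without that array the 12-array fit gave an adjusted p of 0.0414. In the hindgut-tubule samples Rpt3R had 3.79, 6.22 and 3.08 in the mutant, against 4.36, 3.96 and 3.92 in wild type. The change of 0.29 turned to -0.64 without mutant array 2 (adjusted p = 0.104). Control discs exceeded wild-type hindgut-tubule samples by 1.70, without overlap. In the 12-array fit, whose variance includes mutant array 2, the SE was 0.62 and the limma adjusted p 0.0283. That call was lost without array 2 or 3 of either group (adjusted p up to 0.0808). In the limma fit to the 6 arrays of these groups the SE was 0.20 and the adjusted p 2.7e-04.

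Rpt6R had 6.93, 6.86 and 6.89 in the labelled MiT discs, against 5.66, 6.51 and 6.38 in control discs. In the hindgut-tubule samples it had 7.41, 7.22 and 7.19 in the mutant, against 6.23, 7.04 and 6.36 in wild type. Neither pair overlapped, and the changes of 0.71 and 0.73 (SE 0.25 each) missed the threshold, with limma adjusted p of 0.0951 in discs and 0.0749 in hindgut-tubule samples.

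Genes that work with the proteasome were counted over lists, which were chosen with earlier results of these data known. Of 12 genes for assembly and regulation, 0 passed in the discs and 0 in the mutant, with medians of -0.25 and 0.05. Of these, cnc and maf-S are named here after their values were seen: cnc, the fly relative of the mammalian activators of proteasome genes, had a change of 0.27 in the discs (adjusted p = 0.138), and its partner maf-S had -0.48 (adjusted p = 0.118). The 6-array disc fit called 1 of the 12 higher (cnc) and 4 lower (maf-S, PI31, TER94 and Plap). It called 15.0% of tested probe sets higher and 17.5% lower. Between the tissues 6 of 12 were higher in control discs and 0 lower, close to the 47.6% of all tested probe sets, led by REG, the activator cap of the core particle (1.65, adjusted p = 2.06e-06), and Pomp, a chaperone of core assembly (0.88).

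Of 9 genes of ubiquitin supply and delivery, Ubqn (ubiquilin), a shuttle that carries ubiquitinated proteins to the proteasome, rose in both comparisons. Ubqn had 11.35, 11.32 and 11.36 in the labelled MiT discs, against 10.15, 10.49 and 10.61 in control discs (0.92, SE 0.14, limma adjusted p = 0.00205). In the hindgut-tubule samples it had 11.55, 11.28 and 11.34 in the mutant, against 10.65, 10.30 and 10.46 in wild type (0.92, adjusted p = 0.00188), and the call held without mutant array 2 (adjusted p = 0.00266). In the 6 hindgut-tubule arrays alone Ubqn passed as well (adjusted p = 0.0331), but not without single arrays other than mutant array 2 (adjusted p up to 0.155). Uba1, the ubiquitin-activating enzyme, rose in the mutant by 0.39 in the 12-array fit (limma adjusted p = 0.0269). Uba1 did not pass in the 6-array fit (0.211) or without mutant array 1 or 3 or wild-type array 2 or 3 (up to 0.102). Nor did it pass with arrays centred on the median of all probe sets (0.297), which lies near the array's background. The other 7 passed in neither comparison in the 12-array fit. The 6-array disc fit called 1 of the 9 higher (Ubqn) and 2 lower (Ubi-p5E and Uch). It called 15.0% of tested probe sets higher and 17.5% lower. Between the tissues 3 of 9 were higher and 1 lower in control discs (47.6% and 30.0% of tested probe sets). They were led by Uch-L5, a deubiquitinase of the regulatory particle (1.94).

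The COP9 signalosome is a complex built like the lid that removes Nedd8 from cullins. In the 12-array fit 2 of its 8 subunits were lower in the labelled MiT discs and 0 higher. That fit called 5.27% of tested probe sets lower and 7.13% higher. CSN8 had 10.29, 10.35 and 10.31 in the labelled MiT discs, against 10.79, 10.73 and 10.68 in control discs, so that the groups were well apart (-0.42, SE 0.09, limma adjusted p = 0.0135). Subunit 2, whose gene is alien, had a change of -0.45 (adjusted p = 0.0143), and in the mutant one of -0.38 (adjusted p = 0.0271), a call lost in the 6-array fit (0.193), with arrays centred on the median of all probe sets (0.102), and without mutant array 3 or wild-type array 1 or 3 (up to 0.0792). Without single discs the calls of CSN8 and alien in the disc comparison ended for 3 and 4 of the 6 discs (adjusted p up to 0.0567 and 0.0696). Both ended with arrays centred on the median of all probe sets (adjusted p = 0.148 and 0.137), which lies near the array's background. The 6-array disc fit called 6 of 8 lower, where 17.5% of tested probe sets were called lower. Between the tissues 6 of 8 were higher in control discs (47.6% of tested probe sets), led by CSN8 (1.29) and CSN7 (1.04).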

How the data were processed

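The deposited log2 values were made with GCRMA, per the submitters' processing notes, a method that corrects background and then scales arrays to each other (version not given in the sources used here). The authors' deposited table of an analysis of variance holds adjusted p-values, per the file headers. Its signed fold changes, a score with no fixed range, were computed by the authors as well, per the file headers; the wing fold is control over MiT. Its 12 columns of single samples were not used. Probe sets were named by accession through a RefSeq table. Changes were computed here and tested by limma 3.58.1 (R 4.3.3; lmFit and eBayes with a mean for each group, 12 arrays together) on 8678 probe sets at log2 4 or more on at least 3 arrays, with Benjamini-Hochberg adjustment at 0.05. The procedure was tested on simulated data with planted changes larger than those of the subunits, so that recovery of small changes was not covered. The number of arrays limits precision. Members and lists were chosen with earlier results of these data known. Genes were named by rule: up to 5 largest changes called per particle, the extreme opposite change, the 2 smallest changes, expressed paralogs and listed partners called; others were chosen after their values were seen. The main fit did not pair arrays, and the replicate number entered only in the alternative fit with a block. Deviations of same-numbered hindgut-tubule arrays had correlations of 0.292, 0.378 and 0.142, and the block fit is read as paired there. Numbers 1 and 2 deviated most closely with their own number, and number 3 did not. In discs the correlations were 0.335, -0.0538 and -0.179, and only number 1 deviated most closely with its own number. The block fit was run on the discs as well but is not read as paired there.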

Additional observations from a re-analysis of the deposited data

How the results depend on the processing

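Counts of called members (of 30) were recomputed with limma under other settings; those on single arrays of the 6-array fits, on the number 2 arrays and on centring by tested probe sets were chosen after seeing the data. In the discs, main counts of 0 higher and 0 lower became 1 higher (Rpt3R) and 11 lower in the 6-array fit. When that fit left out 1 disc, 0 to 1 were higher and 2 to 8 lower. In the fit to all arrays but mutant array 2, 1 was higher and 2 lower (Rpt2, Rpn7). There 8.97% of tested probe sets were called higher and 8.95% lower, so that neither count exceeded the background share. With the replicate block 2 were lower (Rpn6, Rpn7), where numbers do not pair the discs and 6.89% of probe sets were lower. In the hindgut-tubule samples 0 higher became 1 with the replicate block, 5 without mutant array 2 (0 to 5 over single arrays) and 4 without both number 2 arrays. Between tissues 21 higher became 11 without control disc 2 or without wild-type array 2 (11 to 20 over single arrays). The causes were not tested. The block changed no other count of calls by more than 1.5 times. Of the values of single genes under other settings, 605 kept direction and side of the threshold, 31 passed it only there, 54 lost it and 43 changed sign, all of genes that passed in neither fit. In the discs the log2 change of Prosbeta6 turned to 0.011 and 0.019 without labelled MiT disc 2 or 3, to 0.082 without control disc 2 (-0.072 to 0.082 over single discs) and to 0.026 when centred on tested probe sets. That of Prosalpha2 turned to 0.0090 without labelled MiT disc 3, to 0.043 without control disc 2 (-0.061 to 0.043) and to 0.0086 when so centred. In the hindgut-tubule samples Prosbeta3 turned to -0.035 and -0.034 without mutant array 1 or wild-type array 2, to -0.024 without mutant array 3 (-0.035 to 0.16 over single arrays) and to -0.048 when centred on all probe sets. Without mutant array 2, and then without both number 2 arrays, Rpt3R had -0.64 (-0.64 to 0.93 over single arrays) and -0.70, Rpn11 0.23 (-0.14 to 0.23) and 0.11, Rpt2 0.22 (-0.25 to 0.22) and 0.15, Rpn12 0.25 (-0.20 to 0.25) and 0.12, and Prosbeta2 0.14 (-0.16 to 0.14) and 0.038. Without wild-type array 1 Rpn11 had 0.036 and Rpn12 0.026, and without wild-type array 3 Rpn11 had 0.069, Rpn12 0.059 and Prosbeta2 0.014. Other filters, trend and robust variances, every probe set per member and the authors' p-values kept the counts within 1.5 times. The 5 paralogs near background were not tested, and the number of arrays limits the precision of small changes.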

Other observations

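Beyond the proteasome, mutant array 2 had 282 probe sets at a log2 level of 6 or more that lay under 4 on the other 11 arrays, and Prosbeta4R1 and Prosbeta2R2 were the 2 proteasome paralogs among them. The brightest were tHMG2, a high-mobility-group gene of the testis (9.55, against at most 3.47 on other arrays), and Obp44a, of the odorant-binding protein family (9.47, against at most 3.72).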
